A study of Mus musculus with 122 samples.

Results

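The 32 genes described here encode the cholesterol and fatty acid synthesis machinery that SREBP transcription factors drive, and they were chosen by name. Of them, 18 encode enzymes of sterol synthesis, 6 encode proteins that set the activity of the pathway or move sterol inside the cell, and 8 encode enzymes of fatty acid synthesis, elongation and desaturation. All 32 had a row in the deposited count tables, which together hold 22050 genes. Their RNA was followed in mouse alveolar macrophages and their fetal precursors across every Cebpb mutant of the study, and the changes in Cebpb knockouts were set against those in mice that carry the Lip allele.

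Cells make cholesterol from acetyl-CoA through mevalonate, isoprenoids, squalene and lanosterol. When sterol in the endoplasmic reticulum is low, SCAP escorts the SREBP precursors to the Golgi, where they are cut, and the released factors enter the nucleus and raise transcription of the whole set; when sterol is high, INSIG proteins hold SCAP back. SREBP-2, from Srebf2, acts mainly on sterol genes and SREBP-1, from Srebf1, on fatty acid genes, often beside NF-Y and Sp1 on the same promoters. Srebf1 and Scd1 are also targets of the sterol-sensing LXR receptors. Alveolar macrophages live in the airspace and clear surfactant, a film rich in phospholipid and cholesterol. C/EBPβ, the product of Cebpb, is a leucine zipper factor translated from several start codons of 1 mRNA: the long forms LAP* and LAP carry the activation domain, and the short form LIP lacks it.

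Adult alveolar macrophages came from bronchoalveolar lavage. Germline Cebpb -/- mice carry the C/EBPb tm1Pfj allele on a mixed background, and their cells were sorted as CD11b high (n = 4) and CD11b low (n = 4) beside Cebpb +/+ cells (n = 4). Lip/Lip mice carry the C/EBPtm1.2Acle allele on a mixed background, a knock-in that leaves the short isoform, and were sorted the same way (4 CD11b high, 4 CD11b low) beside their own Lip +/+ controls (n = 3). A further set of RNA libraries, prepared beside chromatin accessibility samples, held 3 Cebpb -/- against 3 +/+ and 4 Lip/Lip against 4 Lip +/+. Germline knockouts were also profiled in females of facility 1 (2 -/-, 3 +/-, 2 +/+), females of facility 2 (2 -/-, 3 +/+) and males (2 -/-, 2 +/+). Conditional knockouts on C57BL/6 were LyzM Cre/Cre Cebpb flox/flox (n = 2) against Cebpb flox/flox without Cre (n = 2), and CD11c +/Cre Cebpb flox/flox (n = 4) against CD11c +/Cre without the floxed allele (n = 3). Both Cre drivers are myeloid but not specific to alveolar macrophages: LyzM Cre replaces Lyz2, and CD11c Cre is an Itgax transgene that also acts in dendritic cells. Mixed chimeras were irradiated CD45.1/2 recipients aged 8 to 12 weeks given 66% CD11c-Cre Cebpb fl/fl CD45.2 marrow and 33% wild-type CD45.1 marrow, with the antibiotic enrofloxacin in the drinking water for 10 days after irradiation. Alveolar macrophages of each donor were sorted from lung at 5 weeks (4 knockout, 3 wild type) and at 10 weeks (3 knockout, 4 wild type). Here the Cebpb genotype and the CD45 donor strain cannot be told apart. From embryonic day 18 lungs came premature alveolar macrophages of Cebpb -/- (n = 4) against +/+ (n = 3) and of Csf2rb -/- (Csf2rbtm1Cgb/J, n = 3) against +/+ (n = 4), and Ly6Chi fetal monocytes of Cebpb -/- (n = 4) against +/+ (n = 3). Csf2rb encodes the common beta chain of the CSF2 receptor, whose signal alveolar macrophages need. Every library came from a sorted pool of cells; the labels number replicates but name no animals, so p-values measure the spread between these samples, which may be partly technical.

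The 99 RNA libraries held 642269 to 17834909 counts and 457 to 24874 counts on the 32 genes, so 3 counts correspond to 0.168 to 4.67 CPM (counts per 1000000, here scaled by TMM within each experiment) depending on the library; this covers counting error only. No 2 libraries were identical. Cebpb itself was at 24.5 to 79.5 CPM in the CD11b high knockout gate and at 31.2 to 51.4 CPM in the CD11b low gate, against 582 to 1540 CPM in wild type, and no knockout group overlapped its control in any experiment. The Lip allele keeps the gene and its transcript (658 to 789 CPM in CD11b high Lip cells, against 510 to 720 CPM in their controls), so its count checks nothing about the allele. In Csf2rb -/- precursors Csf2rb was at 277 to 345 CPM, against 717 to 1310 CPM in wild type. A summed list of 16 alveolar macrophage genes, with Chil3, Lpl, Ear2 and Plet1 the most abundant, fell in mutants of both alleles. Its sum ranged over 1610 to 3200 CPM in knockouts of the CD11b high gate and 5570 to 8510 CPM in those of the CD11b low gate, against 14700 to 18400 CPM in wild type. Lip cells of the same gates had 6890 to 9070 and 15400 to 20300 CPM, against 33600 to 35200 CPM in controls. A list of 14 monocyte and tissue macrophage genes (Fn1, C1qb, C1qa and Csf1r the most abundant) summed to 6150 to 8540 and 4630 to 9090 CPM in the same knockout gates, against 659 to 891 CPM in wild type, and to 2660 to 3700 and 889 to 1110 CPM in the Lip gates, against 860 to 914 CPM in controls. Lists of lymphocyte, eosinophil or mast cell, and stromal genes had 0 members past the count filter in these gates. The part of these shifts in the results below was not tested. In bulk RNA of this kind, fewer cells of a type and less RNA per cell cannot be told apart.

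Promoter sequence of 25 of the 32 genes was matched in the RefSeq table (build GRCm38.p6), as windows from 250 bases before to 50 after the start. The 4 windows below belong to sterol enzymes that were low in knockouts of both CD11b gates: Hmgcs1, the enzyme that makes HMG-CoA; Cyp51 and Hsd17b7, which remove methyl groups and reduce the sterol ring; and Nsdhl, which works in the same demethylation step and lies on the X chromosome. They are printed 5′ to 3′ on the coding strand, with capitals for the NF-Y box CCAAT, read on either strand, and the SREBP core TCACNCCAC.
Hmgcs1, chr13:119690101-119690400, plus strand: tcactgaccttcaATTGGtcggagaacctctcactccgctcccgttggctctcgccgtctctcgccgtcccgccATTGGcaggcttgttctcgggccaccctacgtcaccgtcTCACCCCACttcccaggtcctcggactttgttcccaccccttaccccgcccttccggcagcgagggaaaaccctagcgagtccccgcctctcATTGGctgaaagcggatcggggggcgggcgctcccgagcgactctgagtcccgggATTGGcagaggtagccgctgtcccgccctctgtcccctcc
Cyp51, chr5:4104648-4104947, minus strand: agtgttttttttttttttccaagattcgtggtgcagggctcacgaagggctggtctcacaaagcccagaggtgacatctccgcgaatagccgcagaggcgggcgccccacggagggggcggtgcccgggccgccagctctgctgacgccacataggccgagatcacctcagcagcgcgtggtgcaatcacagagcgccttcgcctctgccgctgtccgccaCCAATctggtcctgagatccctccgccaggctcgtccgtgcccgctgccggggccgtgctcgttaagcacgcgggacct
Hsd17b7, chr1:169969156-169969455, minus strand: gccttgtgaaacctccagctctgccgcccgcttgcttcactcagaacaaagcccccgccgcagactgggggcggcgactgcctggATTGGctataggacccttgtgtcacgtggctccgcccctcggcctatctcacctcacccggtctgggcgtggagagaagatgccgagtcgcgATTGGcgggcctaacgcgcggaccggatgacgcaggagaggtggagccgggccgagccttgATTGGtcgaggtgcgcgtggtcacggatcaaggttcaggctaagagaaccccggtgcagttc
Nsdhl, chrX:72918271-72918570, plus strand: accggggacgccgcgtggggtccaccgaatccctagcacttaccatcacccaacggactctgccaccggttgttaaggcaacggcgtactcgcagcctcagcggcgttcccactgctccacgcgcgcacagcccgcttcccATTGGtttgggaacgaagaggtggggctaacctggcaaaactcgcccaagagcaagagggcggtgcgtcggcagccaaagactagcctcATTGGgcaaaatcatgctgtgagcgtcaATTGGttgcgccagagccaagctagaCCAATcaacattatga
The Cyp51 and Hsd17b7 windows lie inside C/EBPβ peaks of both chromatin immunoprecipitation libraries, described at the end of the results.

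In Cebpb knockout cells of both CD11b gates, most sterol synthesis genes were low. In CD11b high cells 18 of the 27 genes that passed the count filter were called, all lower, against a background of 24.0% of all genes called and 11.8% called lower (edgeR quasi-likelihood test, Benjamini-Hochberg adjusted p under 0.05). In CD11b low cells 13 of 27 were called, 12 of them lower, against 15.1% of all genes in either direction and 6.83% lower. The median log2 fold change of the tested members was -1.08 in CD11b high and -0.85 in CD11b low cells, where the median of all genes was 0.006 and 8e-04. Both gates share the same 4 wild-type libraries. The 18 sterol enzymes summed to 333 ± 49.7 CPM in CD11b high and 391 ± 33.1 CPM in CD11b low knockout cells, against 723 ± 33.1 CPM in wild type (SD, n = 4 each), with no overlap between knockout and wild-type libraries.

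Sqle, the squalene epoxidase and one of the slow steps of the pathway, had 4.18, 5.91, 5.18 and 3.83 CPM in the CD11b high knockouts and 1.36, 3.11, 7.78 and 3.65 CPM in the CD11b low knockouts, against 26.8, 25.4, 35.2 and 25.2 CPM in wild type. Every knockout library lay below every wild-type one. The log2 fold change was -2.44 ± 0.38 in CD11b high cells (SE; edgeR adjusted p = 6.96e-05) and -2.57 ± 0.40 in CD11b low cells (edgeR adjusted p = 0.000111). Fdft1, the squalene synthase that commits isoprenoids to sterol, had 3.49, 5.91, 9.06 and 9.10 CPM in CD11b high and 8.81, 14, 13.9 and 17.1 CPM in CD11b low knockouts, against 26.8, 28.4, 42.9 and 38.4 CPM in wild type. Here too no libraries overlapped, with log2 fold changes of -2.17 ± 0.33 (edgeR adjusted p = 5.06e-05) and -1.25 ± 0.31 (edgeR adjusted p = 0.00872). Cyp51, the lanosterol demethylase, had 9.07, 10.1, 16.8 and 12.9 CPM in CD11b high and 11.5, 18.7, 11.1 and 7.31 CPM in CD11b low knockouts, against 26.8, 64.3, 51.4 and 56.0 CPM in wild type. Its log2 fold changes were -1.89 ± 0.31 and -1.92 ± 0.32 (edgeR adjusted p = 0.000118 and 0.000248).

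Hmgcs1, which makes HMG-CoA early in the pathway, had 20.9, 16.9, 38.8 and 24.9 CPM in CD11b high and 23.7, 31.1, 25.0 and 29.2 CPM in CD11b low knockouts, against 69.1, 85.2, 64.0 and 61.4 CPM in wild type, again without overlap. Its log2 fold changes were -1.33 ± 0.25 and -1.22 ± 0.25 (edgeR adjusted p = 0.000432 and 0.00174). Among the later enzymes, Msmo1, a sterol methyl oxidase, Nsdhl, Hsd17b7 and Lss, the lanosterol synthase, were called lower in both gates, with log2 fold changes between -0.94 (Lss, CD11b high) and -1.62 (Hsd17b7, CD11b low). Dhcr7, which makes cholesterol from its last precursor, was called lower in CD11b high cells only (log2 fold change -1.47, edgeR adjusted p = 0.00421), and the difference between the gates did not pass for it. Acat2, the cytosolic acetyl-CoA acetyltransferase that feeds the pathway, had 0, 3.38, 0 and 2.40 CPM in CD11b high and 2.71, 1.56, 5.56 and 2.44 CPM in CD11b low knockouts, against 26.8, 14.9, 9.86 and 9.88 CPM in wild type. It was called lower in both (edgeR adjusted p = 0.00133 and 0.0259). Acat2 overlaps Tcp1 on the other strand, and the sources used here do not state the strand setting, so its counts are uncertain to that extent. Mvd, the mevalonate decarboxylase, was not called in either gate (log2 fold changes -0.60 and -0.36).

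Of the genes that control the pathway, Srebf2 had 23.0, 36.3, 62.1 and 28.3 CPM in CD11b high and 23.7, 21.8, 43.3 and 25.6 CPM in CD11b low knockouts, against 87.5, 89.7, 71.1 and 92.2 CPM in wild type. The groups did not overlap, and the log2 fold changes were -1.08 ± 0.28 and -1.37 ± 0.28 (edgeR adjusted p = 0.00693 and 0.00188). Stard4, a carrier of sterol between membranes whose gene is itself sterol-responsive, had 5.58, 5.91, 12.9 and 7.18 CPM in CD11b high and 7.46, 4.67, 7.78 and 7.31 CPM in CD11b low knockouts, against 18.3, 55.3, 40.8 and 21.9 CPM in wild type. Its log2 fold changes were -2.01 ± 0.37 and -2.11 ± 0.38 (edgeR adjusted p = 0.000362 and 0.000525). Srebf1 was called lower in CD11b high cells only (log2 fold change -0.75, edgeR adjusted p = 0.0246) and Scap in CD11b low cells only (-0.81, edgeR adjusted p = 0.032). Insig2, the INSIG form that is not driven by SREBP, was called in none of the 24 comparisons and stood at 0.15 ± 0.26 and 0.10 ± 0.27 here.

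**Figure D1:**
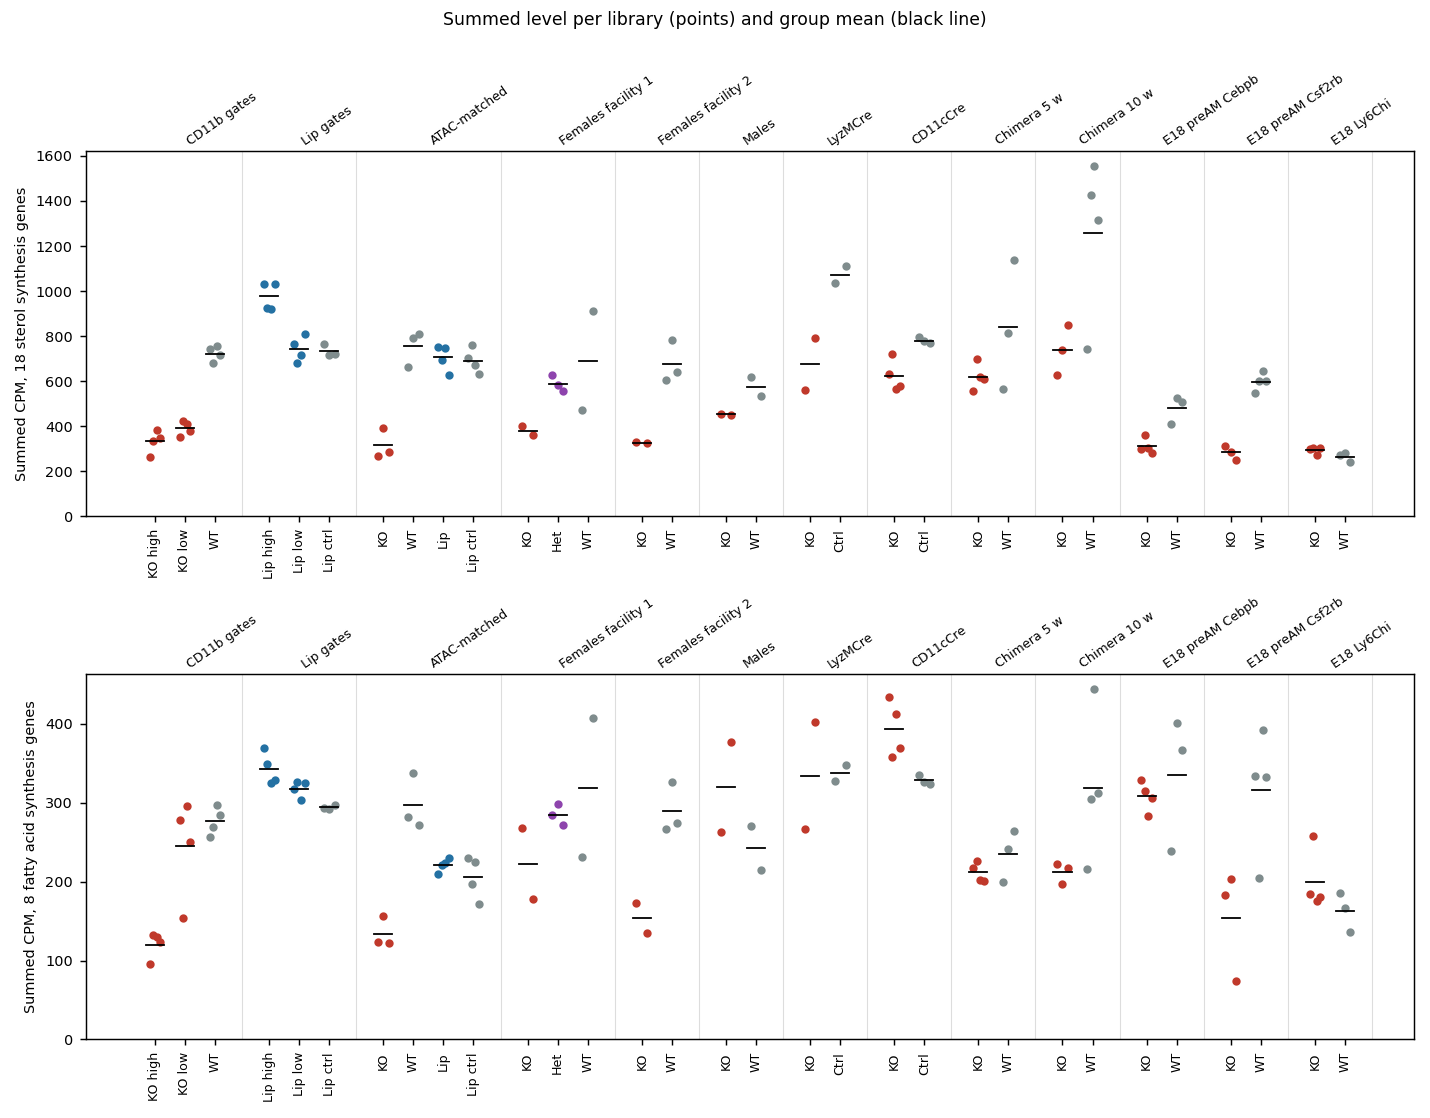
Points are libraries and black lines group means of the summed CPM over the 18 sterol enzymes (top) and the 8 fatty acid genes (bottom), by experiment and group, mutants left of their controls. In the CD11b gates the knockout libraries lie at 264 to 425 CPM for the sterol enzymes and wild type at 680 to 755 CPM, whereas CD11b high Lip libraries lie at 918 to 1030 CPM and their controls at 715 to 766 CPM.

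The fatty acid genes were less uniform. In CD11b high knockout cells 4 of 7 tested were called lower, where 24.0% of all genes were called and 11.8% were lower. In CD11b low cells 1 of 7 was called, and it was higher, where 15.1% of all genes were called, a share near the background. Fasn, the fatty acid synthase, had 9.07, 10.1, 7.77 and 8.62 CPM in CD11b high and 14.2, 23.4, 27.2 and 11 CPM in CD11b low knockouts, against 21.2, 19.4, 54.2 and 52.7 CPM in wild type. The CD11b high libraries lay below all wild-type ones (log2 fold change -1.93 ± 0.38, edgeR adjusted p = 0.000688), and the CD11b low libraries overlapped them. Elovl6, which lengthens palmitate to stearate, had 5.58, 5.91, 2.59 and 3.83 CPM in CD11b high and 14.2, 6.23, 19.4 and 4.87 CPM in CD11b low knockouts, against 40.9, 32.9, 19.7 and 24.1 CPM in wild type. It was called lower in CD11b high cells (log2 fold change -2.47 ± 0.42, edgeR adjusted p = 0.000152) and missed the threshold in CD11b low cells (-1.07 ± 0.37, edgeR adjusted p = 0.057). Acly, which supplies cytosolic acetyl-CoA from citrate, was also called lower in CD11b high cells (log2 fold change -0.93, edgeR adjusted p = 0.00988).

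The stearoyl-CoA desaturases, which place the double bond that makes oleate and palmitoleate, differed between the gates. Scd1 had 5.58, 8.44, 2.59 and 15.3 CPM in CD11b high and 56.3, 29.6, 64.5 and 51.1 CPM in CD11b low knockouts, against 0, 4.48, 7.74 and 0 CPM in wild type. The CD11b low libraries lay above all others, with a log2 fold change of 3.93 ± 0.54 over wild type (edgeR adjusted p = 3.58e-05), and CD11b high cells overlapped wild type (1.41 ± 0.64, edgeR adjusted p = 0.12). Scd2, its close paralog, had 21.6, 6.75, 6.47 and 12.0 CPM in CD11b high and 81.3, 29.6, 62.8 and 47.5 CPM in CD11b low knockouts, against 33.9, 74.7, 53.5 and 50.5 CPM in wild type. It was lower in CD11b high cells (log2 fold change -1.94 ± 0.36, edgeR adjusted p = 0.000472) and overlapped wild type in CD11b low cells (0.25 ± 0.32). Set directly against CD11b low knockouts, CD11b high knockouts were lower for 2 of 27 tested members, these same desaturases: -2.52 ± 0.44 for Scd1 and -2.18 ± 0.36 for Scd2 (edgeR adjusted p = 0.00225 and 0.00102), where 3.80% of all genes were called and 2.61% were lower. The sources used here do not state how reads matching both paralogs were counted.

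**Figure D2:**
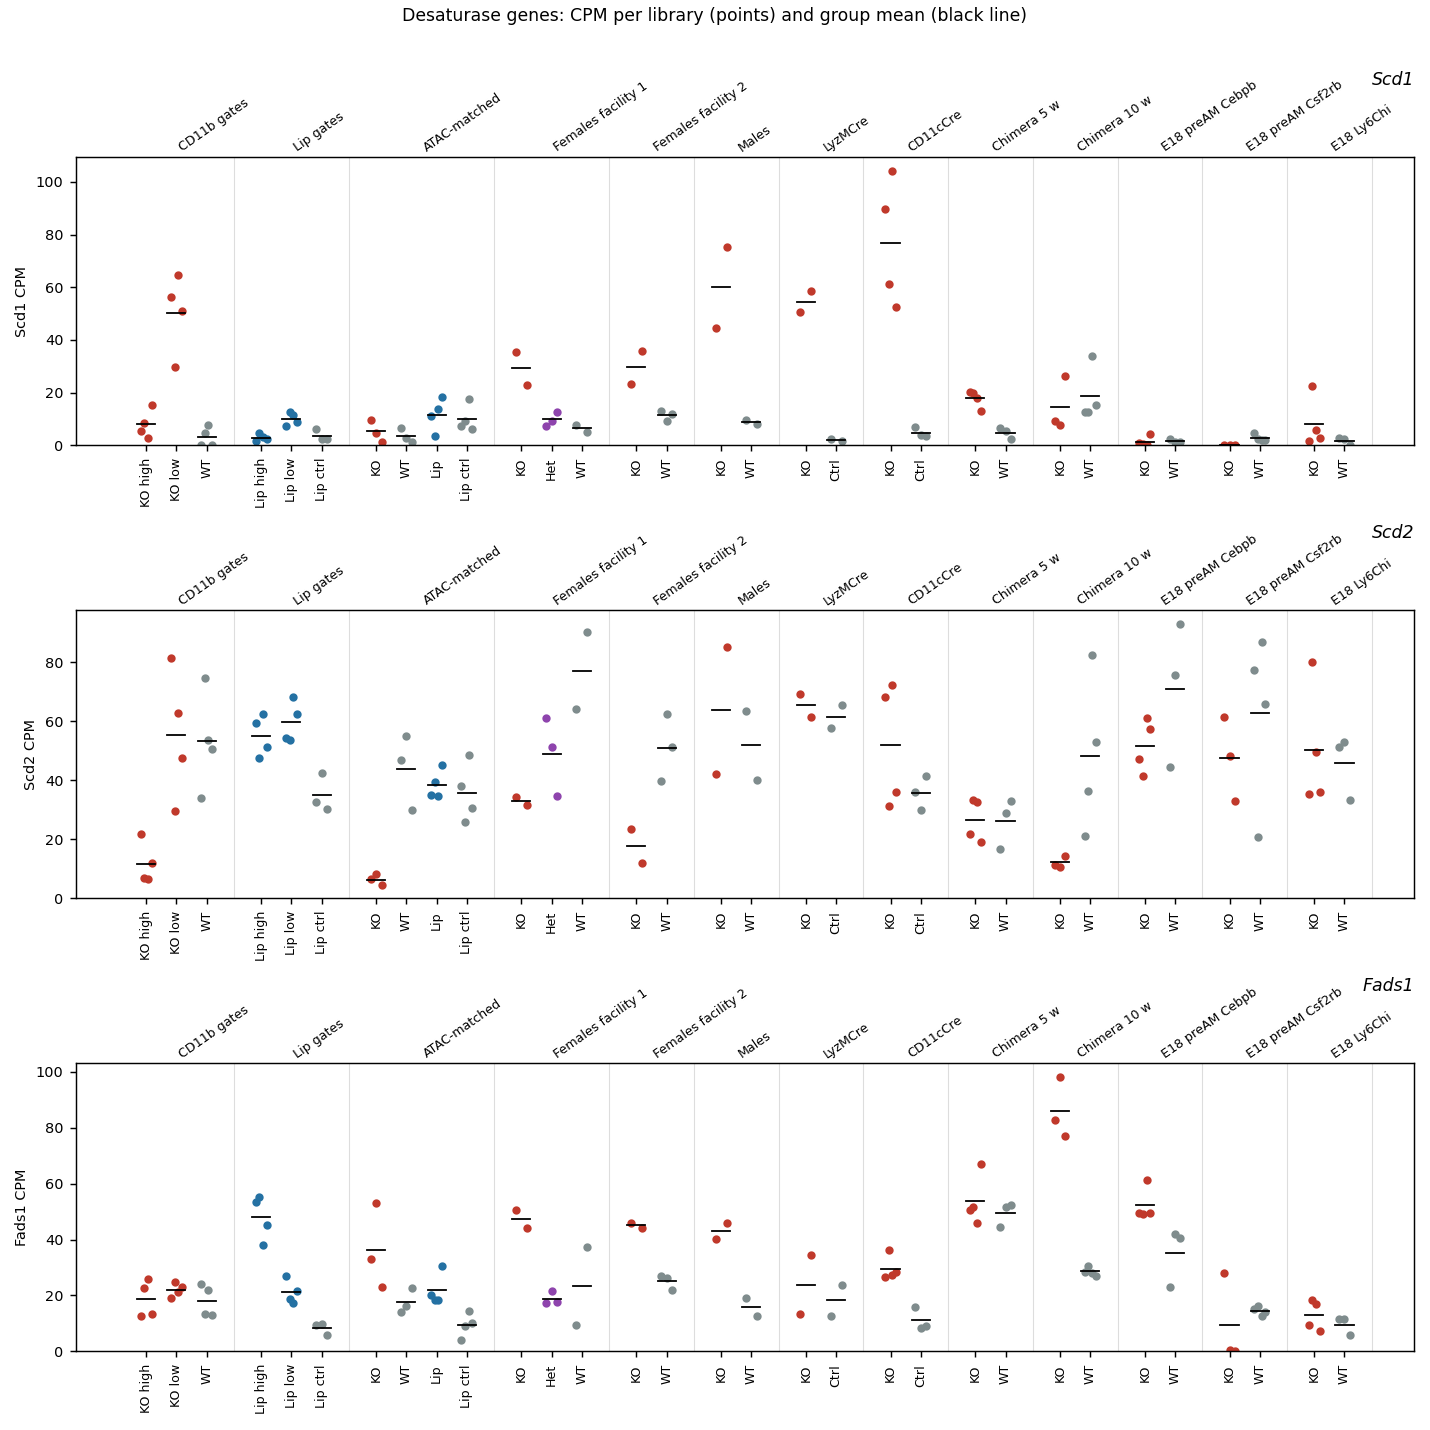
Points are libraries and black lines group means of CPM for Scd1 (top), Scd2 (middle) and Fads1 (bottom), by experiment and group, mutants left of their controls. Scd1 reaches 29.6 to 64.5 CPM in knockouts of the CD11b low gate and 52.3 to 104 CPM in CD11c Cre knockouts, against at most 7.74 and 6.86 CPM in their controls, while Fads1 reaches 38.0 to 55.2 CPM in CD11b high Lip libraries, against 5.84 to 9.68 CPM in controls.

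The RNA libraries prepared beside the chromatin samples gave 20 of 30 tested members called in Cebpb knockouts, 19 of them lower, where 27.2% of all genes were called and 12.6% were lower. The count was 13 without wild-type replicate 2 or replicate 3, and leave-outs of the other libraries gave up to 23. Lists of other cells moved with these knockouts. Of neutrophil genes 5 of 5 tested rose (191 to 449 CPM summed in knockouts, against 53.8 to 65.3 CPM in wild type). Of erythroid genes 3 of 3 rose (501 to 1500 CPM, against 133 CPM in every wild-type library). Of monocyte and macrophage genes 9 of 12 rose (7200 to 13300 CPM, against 787 to 1340 CPM in wild type), and of alveolar macrophage genes 13 of 16 fell (1870 to 2050 CPM, against 17700 to 19700 CPM in wild type). Mitochondrial counts were 1.77% to 2.005% of the total in knockouts, against 1.476% to 1.559% in wild type. The part of these shifts was not tested. Of 17 sterol enzymes tested, 13 were lower. Dhcr7 had 7.46, 7.88 and 7.98 CPM in knockouts, against 27.8, 33.9 and 32.4 CPM in wild type (log2 fold change -1.74 ± 0.20, edgeR adjusted p = 0.000186). Hmgcs1 had 19.9, 26.8 and 34.7 CPM, against 79.2, 85.9 and 96.5 CPM in wild type (-1.42 ± 0.21, edgeR adjusted p = 0.000889). Neither gene overlapped between genotypes. Fdps, the farnesyl diphosphate synthase, had 0.932, 1.58 and 1.40 CPM in knockouts, against 5.82, 8.28 and 7.46 CPM in wild type (-2.20 ± 0.38, edgeR adjusted p = 0.00224); processed copies of this gene in the genome can share its reads. Scd2 had 6.53, 8.15 and 4.39 CPM in knockouts, against 46.8, 54.8 and 30.1 CPM in wild type (-2.52 ± 0.30, edgeR adjusted p = 0.000243), and Fasn had 10.6, 17.9 and 12.0 CPM, against 51.6, 63.1 and 38.1 CPM (-1.65 ± 0.26, edgeR adjusted p = 0.00117). Again the libraries separated fully. Acaca, the acetyl-CoA carboxylase that makes malonyl-CoA, was called lower in this experiment alone of the 19 comparisons of 2 groups (-1.25 ± 0.24, edgeR adjusted p = 0.0041), whereas Srebf2 was not called (-0.44, edgeR adjusted p = 0.19). Fads1, the delta-5 desaturase of polyunsaturated fatty acids, was the member that rose, with 33.0, 53.1 and 23.1 CPM in knockouts, against 14.2, 16.3 and 22.8 CPM in wild type (1.29 ± 0.32, edgeR adjusted p = 0.0154).

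The sterol enzymes went the other way in CD11b high Lip cells, where 9 of 17 tested were higher and none lower. In these cells 15 of all 30 tested members were called and 14 of them were higher, where 39.3% of all genes were called and 20.8% were higher. In CD11b low Lip cells 7 of 30 were called, 5 higher and 2 lower, against 25.8% of all genes, a share close to the background. Both gates share the same 3 control libraries. The sterol enzymes summed to 976 ± 64.5 CPM in CD11b high and 742 ± 56.1 CPM in CD11b low Lip cells (SD, n = 4 each), against 734 ± 28.1 CPM in controls (SD, n = 3). Libraries of the CD11b high gate lay above every control, and those of the CD11b low gate overlapped the controls.

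Sqle had 60.1, 58.0, 41.8 and 49.6 CPM in CD11b high and 13.9, 15.6, 22.5 and 22.7 CPM in CD11b low Lip cells, against 20.0, 25.4 and 23.4 CPM in controls. CD11b high libraries lay above all others (log2 fold change 1.26 ± 0.20 over controls, edgeR adjusted p = 1.12e-06), and CD11b low libraries overlapped the controls. Fdft1 had 70.3, 50.4, 61.5 and 73.3 CPM in CD11b high and 36.9, 26.0, 31.7 and 51.2 CPM in CD11b low Lip cells, against 35.8, 28.4 and 39.7 CPM in controls (CD11b high 0.99 ± 0.19, edgeR adjusted p = 7.07e-05). Mvd had 218, 203, 232 and 260 CPM in CD11b high and 152, 179, 190 and 204 CPM in CD11b low Lip cells, against 135, 98.6 and 114 CPM in controls. It was the sterol enzyme with the smallest adjusted p in both Lip gates (1.09 ± 0.13, edgeR adjusted p = 1.52e-09, and 0.78 ± 0.13, edgeR adjusted p = 4.9e-06). Mvk, the mevalonate kinase, Sc5d, the lathosterol desaturase, Tm7sf2, a sterol reductase, Msmo1, Nsdhl and Fdps were also called higher in CD11b high Lip cells, with log2 fold changes between 0.62 (Nsdhl) and 1.07 (Mvk and Sc5d). Hmgcs1 and Cyp51 were not among them: Hmgcs1 stood at 0.00 in CD11b high Lip cells, and Cyp51 was called lower in CD11b low Lip cells (-0.72 ± 0.17, edgeR adjusted p = 0.0014).

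Srebf2 had 104, 99.9, 89.6 and 94.7 CPM in CD11b high and 67.2, 64.0, 60.6 and 70.7 CPM in CD11b low Lip cells, against 57.8, 57.4 and 68.3 CPM in controls, and rose in CD11b high cells (0.75 ± 0.13, edgeR adjusted p = 9.06e-06). Insig1, the SREBP-driven brake of the pathway, had 13.6, 5.71, 7.59 and 8.40 CPM in CD11b high and 4.92, 2.98, 4.62 and 4.06 CPM in CD11b low Lip cells, against 2.10, 4.84 and 2.92 CPM in controls, and rose in CD11b high cells (1.43 ± 0.45, edgeR adjusted p = 0.00931). Fads1 had 38.0 to 55.2 CPM in CD11b high and 27.1, 18.6, 17.3 and 21.5 CPM in CD11b low Lip cells, against 9.46, 9.68 and 5.84 CPM in controls. Both gates lay above the controls (2.63 ± 0.25, edgeR adjusted p = 1.81e-12, and 1.46 ± 0.27, edgeR adjusted p = 3.43e-05).

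Elovl6 went the other way and was called lower in both Lip gates. It had 6.78, 3.81, 4.56 and 6.11 CPM in CD11b high and 3.28, 2.98, 2.89 and 5.69 CPM in CD11b low Lip cells, against 24.2, 19.9 and 28.6 CPM in controls. No libraries overlapped (-2.07 ± 0.32, edgeR adjusted p = 7.31e-07, and -2.49 ± 0.32, edgeR adjusted p = 1.64e-08). Scd1 was higher in CD11b low Lip cells (1.70 ± 0.43, edgeR adjusted p = 0.00219), at 7.38, 12.6, 11.5 and 8.94 CPM, and stood at 1.69, 4.76, 3.04 and 2.29 CPM in CD11b high Lip cells, against 6.31, 2.42 and 2.34 CPM in controls. Between the gates, CD11b high Lip cells had 12 members higher and 1 lower (Scd1, -1.79 ± 0.42, edgeR adjusted p = 0.00129) than CD11b low Lip cells among 30 tested, where 19.5% of all genes were called and 10.1% were higher, and Sqle differed by 1.41 ± 0.18 (edgeR adjusted p = 4.55e-08). Epithelial genes (12 genes, Napsa and Abca3 the most abundant) moved with the Lip gates, summing to 855 to 939 CPM in CD11b high and 600 to 628 CPM in CD11b low Lip cells, against 271 to 282 CPM in controls, and erythroid genes were called higher in both gates (2 of 2 tested in each; 0.847 to 83.3 CPM summed in CD11b high and 23.0 to 43.5 CPM in CD11b low Lip cells, against 0 to 2.92 CPM in controls). Neutrophil genes were lower in 3 of 3 tested in CD11b high Lip cells (26.7 to 33.4 CPM summed, against 119 to 153 CPM in controls), and in 2 of 3 in CD11b low ones. Mitochondrial counts of the CD11b high Lip cells were 1.536% to 1.767% of the total, against 1.031% to 1.148% in controls. The part of these shifts in the results was not tested.

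**Figure D3:**
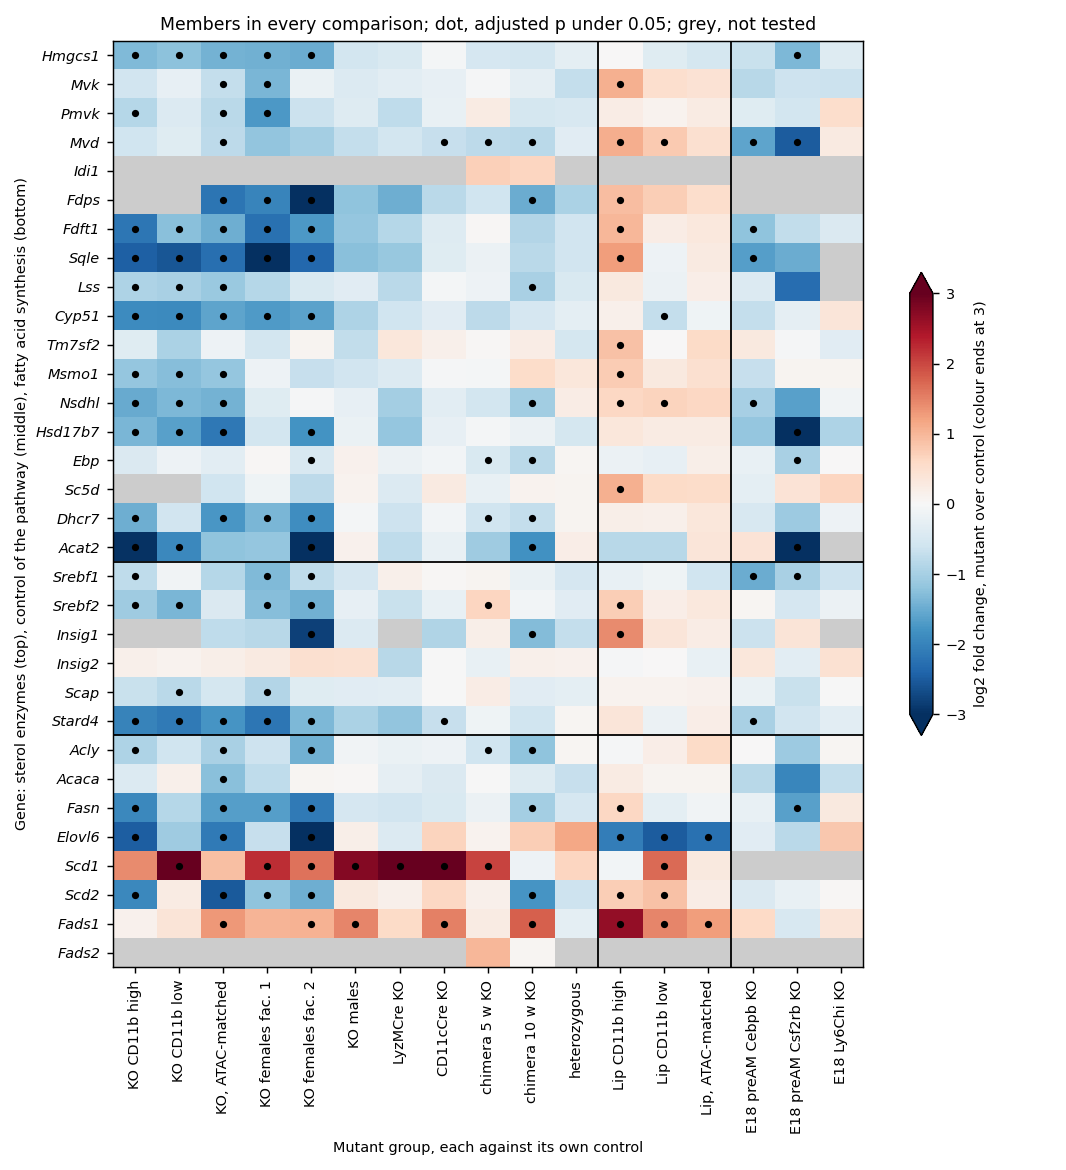
Each cell of the grid is the log2 fold change of 1 of the 32 genes (rows, grouped as sterol enzymes, control of the pathway and fatty acid synthesis) in 1 mutant group over its own control (columns), with a dot where the adjusted p was under 0.05 and grey where the gene was not tested. The sterol enzymes are mostly blue in the germline knockouts on the left, with 9 and 11 called lower in the CD11b low and CD11b high gates and 0 in males. They are mostly red in the Lip cells, with 9 called higher in the CD11b high gate.

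In the Lip libraries prepared beside the chromatin samples 2 of 30 tested members were called, where 4.94% of all genes were called. Fads1 was higher, at 20.2, 18.4, 18.4 and 30.4 CPM in Lip cells, against 4.14, 9.25, 14.3 and 10.3 CPM in controls (1.24 ± 0.34, edgeR adjusted p = 0.0425). Elovl6 was lower, at 2.33, 14, 0.302 and 3.33 CPM in Lip cells, against 34, 24.4, 16.6 and 23.7 CPM in controls (-2.23 ± 0.61, edgeR adjusted p = 0.0465). Neither overlapped its controls. The count of 2 was 0 or 1 without any 1 library but control replicate 3, and was 1 with DESeq2. The rise of sterol enzymes seen in the CD11b high Lip gate was not called here: Sqle had 14.8, 12.4, 15.7 and 11.3 CPM in Lip cells, against 7.46, 9.25, 15.9 and 15.7 CPM in controls.

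The knockout effect and the Lip effect were compared directly, as the difference of the 2 log2 fold changes within 1 fit. In the CD11b high gate 21 of 30 tested members were lower in the knockout relative to Lip and none higher, where 5.97% of all genes were called and 4.05% were lower. In the CD11b low gate 9 of 30 were lower and none higher, where 4.00% of all genes were called and 2.48% were lower. In the libraries prepared beside the chromatin samples 11 of 30 were lower and none higher, where 6.67% of all genes were called and 3.78% were lower; without Cebpb wild-type replicate 2 the count was 6. The median difference over tested members was -1.69, -0.94 and -1.28 in the same order. The alleles came from separate colonies, each with its own controls, so allele and colony cannot be told apart, and the CD11b gates of an allele share their controls.

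**Figure D4:**
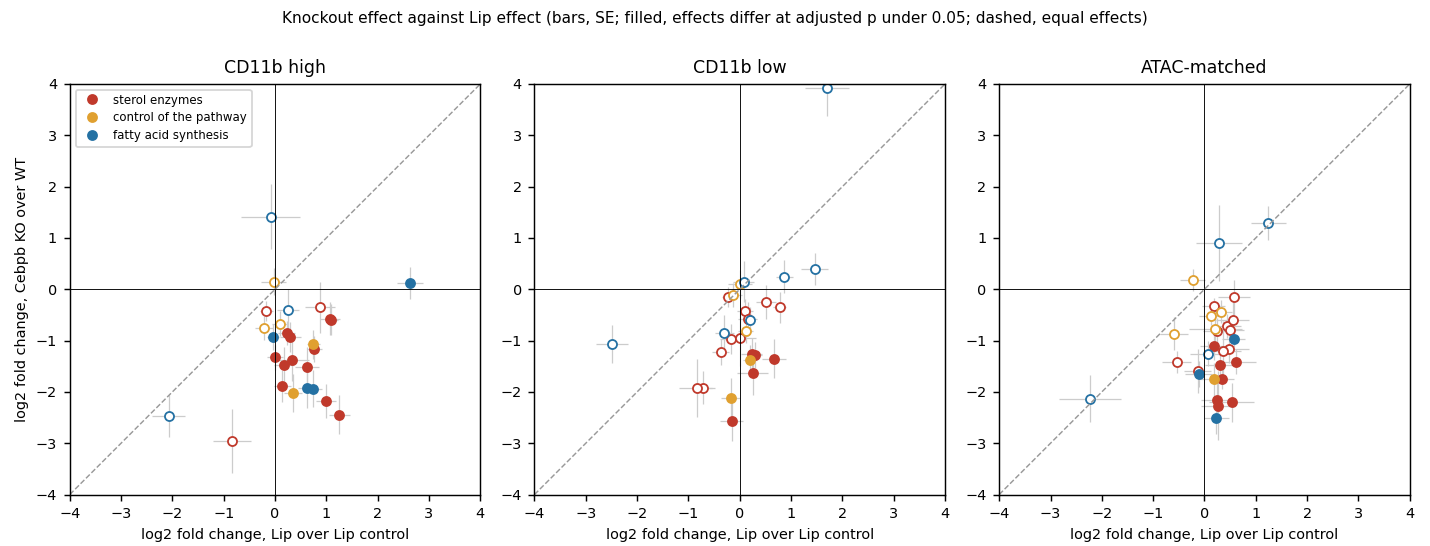
Each point is 1 tested gene, with its log2 fold change in Lip cells over Lip controls (horizontal axis) and in Cebpb knockouts over wild type (vertical axis), bars showing SE, in the CD11b high gate, the CD11b low gate and the libraries prepared beside the chromatin samples. Filled points are genes whose effects differ at adjusted p under 0.05, and these points lie below the dashed line of equal effects. Fdps, Sc5d and Insig1 have no point in the CD11b panels, since they did not pass the count filter in the Cebpb experiment of those gates.

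Sterol enzymes made up most of these differences, with 14 of 17 tested in CD11b high cells and 7 of 17 in each of the others. The 6 genes Fdps, Fdft1, Sqle, Nsdhl, Hsd17b7 and Stard4 were called in all 3 comparisons. Fdps, like Sc5d and Insig1, did not pass the count filter in the Cebpb experiment of the CD11b gates. For these gates such genes were tested only in the fit that also held the Lip libraries. Sqle differed by -3.72 ± 0.41 in CD11b high cells (edgeR adjusted p = 1.59e-07), by -2.39 ± 0.43 in CD11b low cells (edgeR adjusted p = 0.000457) and by -2.49 ± 0.69 in the third set (edgeR adjusted p = 0.0342). Fdft1 differed by -3.16 ± 0.39 in CD11b high cells (edgeR adjusted p = 8.69e-07), and by -1.48 and -1.76 in the others. Stard4 differed by -2.39, -1.94 and -1.93, and Hsd17b7 by -1.70, -1.88 and -2.38. Hsd17b7 had 2.42, 3.68 and 0.798 CPM in knockouts of the third set, against 11.9, 14.3 and 10.2 CPM in wild type, and 13.8, 14.4, 11.8 and 9.11 CPM in Lip cells, against 12.4, 10.6, 12.7 and 9.85 CPM in Lip controls. Only the knockout libraries stood apart. Nsdhl had 9.32, 5.78 and 9.58 CPM in those knockouts, against 23.0, 28.6 and 28.5 CPM in wild type, and 22.7, 21.1, 36.5 and 23.8 CPM in Lip cells, against 5.80, 15.9, 33.0 and 16.6 CPM in Lip controls. Its difference was -2.01 there, and -2.14 and -1.99 in the CD11b high and low gates.

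Fatty acid genes differed between the alleles in the CD11b high gate (4 of 7 tested) and in the third set (3 of 7), where 5.97% and 6.67% of all genes differed. The 9 members called in CD11b low cells, where 4.00% of all genes differed, were 7 sterol enzymes, Srebf2 and Stard4. In CD11b high cells Fasn differed by -2.57 ± 0.43 (edgeR adjusted p = 0.000124), Scd2 by -2.65 (edgeR adjusted p = 3.63e-05) and Fads1 by -2.52 (edgeR adjusted p = 6.76e-05). Srebf2 differed by -1.84 in CD11b high and -1.55 in CD11b low cells (edgeR adjusted p = 0.000105 and 0.00149). For Elovl6, called lower in CD11b high cells and in the third set with either allele, no difference between the alleles was called: the values were -0.38, 1.47 and 0.12 in the CD11b high gate, the CD11b low gate and the third set. Knockout and Lip cells both lost alveolar macrophage genes, and cell cycle genes were lower in both (12 of 15 tested in CD11b high knockouts and 16 of 19 in CD11b high Lip cells), so these lists moved with either allele. Set directly against each other in CD11b high cells, the alleles differed for 8 of 16 alveolar macrophage genes (7 lower in the knockout relative to Lip), 3 of 11 monocyte and macrophage genes (higher), 2 of 3 neutrophil genes (higher), 2 of 4 epithelial genes (lower) and 1 of 22 cell cycle genes (higher). In CD11b low cells the alleles differed for 4 of 16 alveolar macrophage genes (3 lower, 1 higher) and 3 of 11 monocyte and macrophage genes (higher). There 2 of 3 neutrophil genes (higher), 2 of 4 epithelial genes (lower) and 0 of 22 cell cycle genes differed. In the third set the alleles differed for 12 of 16 alveolar macrophage genes (lower) and 7 of 12 monocyte and macrophage genes (higher). Of the other lists 2 of 5 neutrophil genes (higher), 1 of 6 epithelial genes (lower) and 0 of 22 cell cycle genes differed in that set. The part of these lists in the sterol result was not tested.

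**Figure D5:**
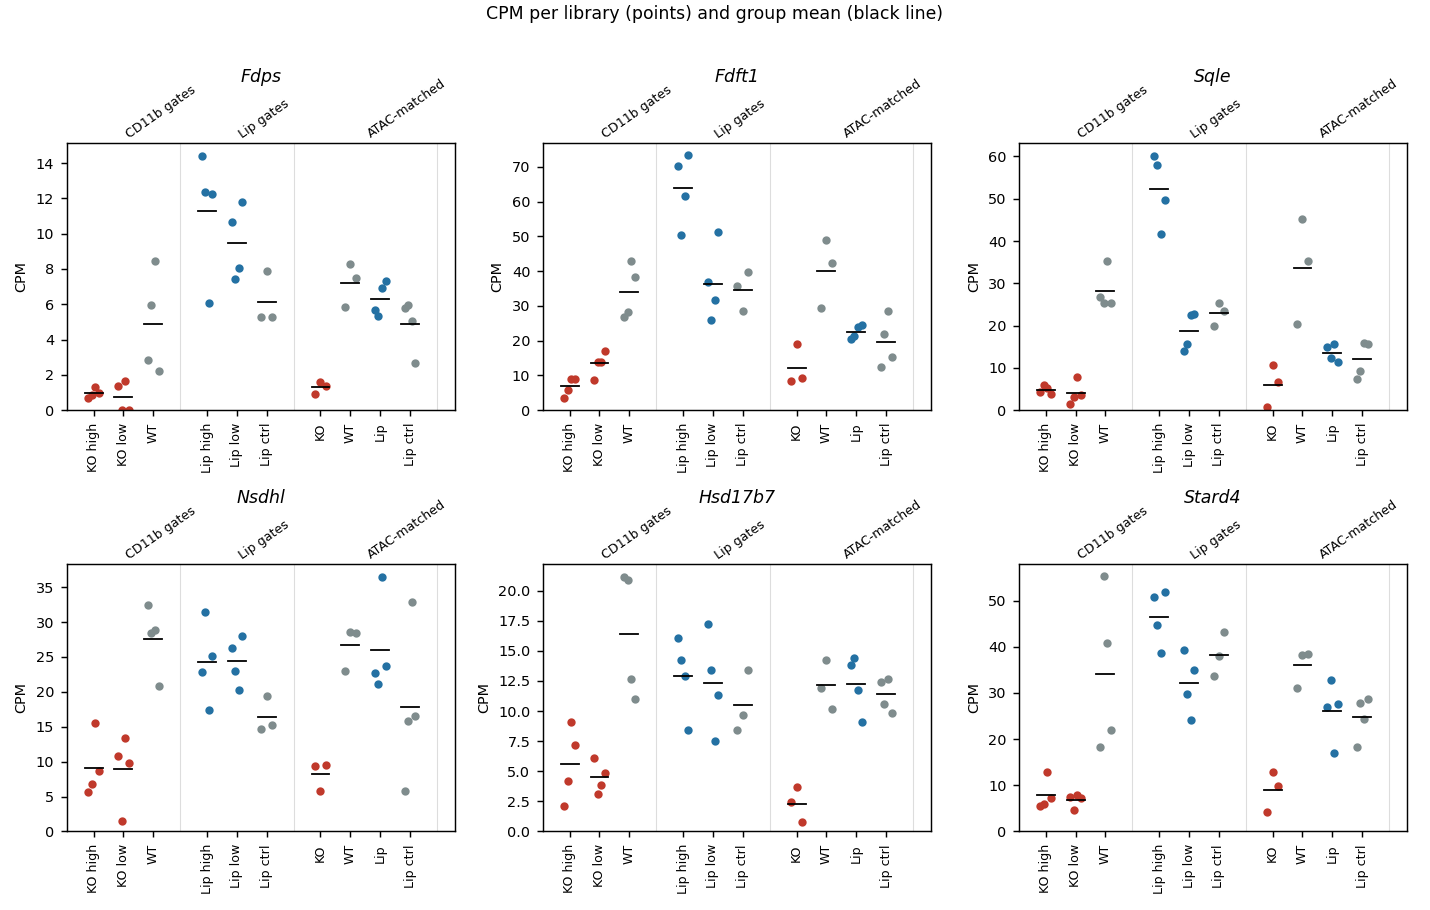
Points are libraries and black lines group means of CPM for the 6 genes called in all 3 comparisons of the knockout with the Lip effect, in the CD11b gates and in the libraries prepared beside the chromatin samples, mutants left of their controls. Knockout libraries lie near the bottom of each panel, as for Stard4 at 4.29 to 12.9 CPM, against 18.3 to 55.3 CPM in wild type, while Lip libraries overlap or exceed their controls.

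Germline knockouts were also grouped by sex and facility. In facility 1 females 15 of 30 tested members were called, 14 lower, where 23.2% of all genes were called and 10.8% were lower. Leave-outs gave 5 without wild-type replicate 2 and, without replicate 1 of that group, 19. The sterol enzymes of these 2 wild-type libraries summed to 471 and 911 CPM, against 361 and 401 CPM in knockouts. In facility 2 females 19 of 30 were called, 17 lower, where 47.6% of all genes were called and 22.7% were lower. Sqle had 5.54 and 3.23 CPM in facility 2 knockouts, against 20.3, 34 and 16.8 CPM in wild type (-2.37 ± 0.58, edgeR adjusted p = 0.00308). Insig1 fell there as well (-2.81, edgeR adjusted p = 0.00459). Elovl6 had 0 and 2.68 CPM in facility 2 knockouts, against 28.3, 26.7 and 25.5 CPM in wild type, and 14.5 and 5.01 CPM in facility 1 knockouts, against 16.7 and 16.0 CPM in wild type. It was the 1 of 30 members whose effect differed between facilities (-2.74 ± 0.72, edgeR adjusted p = 0.0323), where 7.61% of all genes differed. That count was 0 without facility 1 wild-type replicate 2, facility 1 knockout replicate 1 or facility 2 wild-type replicate 1 or 2. It was 2 without facility 1 wild-type replicate 1 or facility 2 knockout replicate 2, and 4 without facility 2 knockout replicate 1. In males 2 of 30 were called, Scd1 and Fads1, both higher, where 10.9% of all genes were called and 7.12% were higher, and 1 of 30 was called when any of the 4 male libraries was left out. The male sterol enzyme sums were 451 and 456 CPM in knockouts, against 533 and 618 CPM in wild type. Mitochondrial counts were 0.886% to 1.22% of the total in facility 2 knockouts, against 0.039% to 0.058% in wild type, and the part of this difference was not tested. Heterozygous females had 0 of 30 called by edgeR's quasi-likelihood test (5 at unadjusted p under 0.05, and 1 with DESeq2), where 0.634% of all genes were called.

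In conditional knockouts Scd1 rose with both Cre drivers, and the sterol enzyme Mvd fell with CD11c Cre. The 18 sterol enzymes summed to 563 and 792 CPM in LyzM Cre knockouts, against 1030 and 1110 CPM in controls. With CD11c Cre the sums were 566 to 722 CPM in knockouts, against 769 to 794 CPM in controls. The sums of knockout and control libraries did not overlap with either driver. With LyzM Cre 1 of 29 tested members was called, Scd1, higher, where 4.68% of all genes were called; 10 had an unadjusted p under 0.05, and the count was 13 without knockout replicate 1 and 16 without knockout replicate 2. Sqle had 6.60 and 30.7 CPM in the LyzM Cre knockouts, against 52.1 and 46.2 CPM in controls, so these 2 knockout libraries stood apart from each other. They held 909515 and 4659853 counts, and 3 counts are 3.30 CPM in the first, so its Sqle value rests on few reads. With CD11c Cre 4 of 30 were called, where 16.8% of all genes were called, a share near the background; the count was 7 without knockout replicate 2 and 8 without knockout replicate 4. Mvd had 76.4, 69.7, 55.4 and 91.8 CPM in CD11c Cre knockouts, against 123, 121 and 128 CPM in controls (-0.68 ± 0.15, edgeR adjusted p = 0.00759), and Stard4 fell by 0.70 on the log2 scale (edgeR adjusted p = 0.0262). Scd1 had 89.8, 61.3, 104 and 52.3 CPM in CD11c Cre knockouts, against 6.86, 3.99 and 3.54 CPM in controls (4.12 ± 0.30, edgeR adjusted p = 1.81e-06). With LyzM Cre it had 50.6 and 58.6 CPM in knockouts, against 2.40 and 1.54 CPM in controls (4.81 ± 0.42, edgeR adjusted p = 0.000402). Knockout and control libraries were far apart for Scd1 with both drivers. Fads1 rose with CD11c Cre (1.52 ± 0.22, edgeR adjusted p = 0.000431). The alveolar macrophage list summed to 17600 to 25400 CPM in CD11c Cre knockouts, against 49700 to 52300 CPM in controls, and neutrophil genes summed to 315 to 377 CPM in knockouts, against 51.7 to 73.5 CPM in controls. With LyzM Cre the alveolar macrophage list summed to 8120 and 14700 CPM in knockouts, against 29600 and 32700 CPM in controls. Mitochondrial counts there were 1.367% and 1.617% of the total, against 0.813% and 0.973% in controls. The part of these shifts in these results was not tested.

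In mixed chimeras 7 of 18 sterol enzymes were lower in knockout cells at 10 weeks and none higher, where 45.5% of all genes were called and 21.1% were lower. At 5 weeks 6 of 32 tested members were called, 4 lower and 2 higher, where 22.5% of all genes were called, so the share lay near the background. The count was 2 without knockout replicate 2, 3 or 4 or wild-type replicate 2. It was 3 when the third wild-type library was left out, and 3 with the replicate number as a block. At 10 weeks 12 of 32 were called, 11 of them lower, where 45.5% of all genes were called and 21.1% were lower. The share of members called in either direction was thus not above that of all genes, and only the share lower was. Ebp, the sterol isomerase, had 121, 98.3 and 93.0 CPM in 10-week knockouts, against 194, 216, 219 and 205 CPM in wild type (-0.81 ± 0.11, edgeR adjusted p = 3.11e-05), and 108, 115, 119 and 109 CPM in 5-week knockouts, against 167, 168 and 171 CPM in wild type (-0.45 ± 0.11, edgeR adjusted p = 0.00789). It separated the genotypes at both times. Acly fell by 1.20 at 10 weeks on the log2 scale (edgeR adjusted p = 0.000124), and Srebf2 rose at 5 weeks, with 200, 228, 209 and 241 CPM in knockouts, against 121, 154 and 184 CPM in wild type (0.64 ± 0.21, edgeR adjusted p = 0.0397). The knockout effect differed between the times for 3 of 32 members, where 13.5% of all genes differed: Fads1, with 82.6, 98 and 77.1 CPM in 10-week knockouts, against 28.5, 30.6, 28.1 and 27.1 CPM in wild type (difference 1.53 ± 0.23, edgeR adjusted p = 0.000476), and Scd1 and Scd2, whose effects were lower at 10 weeks (-2.19 ± 0.64 and -1.92, edgeR adjusted p = 0.0367 and 0.035). That count was 1 without 5-week knockout replicate 2 or 3, 5-week wild-type replicate 2, 10-week knockout replicate 2 or 10-week wild-type replicate 4, and 6 without 10-week wild-type replicate 1. Dendritic cell genes summed to 2090 to 3520 CPM in 5-week knockouts, against 499 to 715 CPM in wild type. At 10 weeks alveolar macrophage genes fell in 13 of 16 (1230 to 3050 CPM summed in knockouts, against 19600 to 32200 CPM in wild type). Monocyte and macrophage genes rose in 12 of 14 (17700 to 23600 CPM, against 3770 to 7110 CPM in wild type), and cell cycle genes fell in 22 of 22. Mitochondrial counts were 0.421% to 0.898% of the total in 10-week knockouts, against 0.147% to 0.185% in wild type. The part of these shifts was not tested. Idi1, the isopentenyl diphosphate isomerase, and Fads2, the delta-6 desaturase, had enough counts for a test only in the chimeras and were not called.

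In fetal precursors at embryonic day 18, 6 of 28 tested members were called in Cebpb knockouts, all lower, where 21.5% of all genes were called and 9.55% were lower. The share called in either direction lay near the background, and only the share lower was above it. The count was 3 without wild-type replicate 2 or 3. Mvd had 21.1, 27.0, 26.7 and 27.5 CPM in knockouts, against 75.3, 76.5 and 74.7 CPM in wild type (-1.58 ± 0.21, edgeR adjusted p = 0.000104). Srebf1 had 44.6, 51.5, 39.9 and 32.1 CPM in knockouts, against 101, 160 and 98.5 CPM in wild type (-1.50 ± 0.23, edgeR adjusted p = 0.000308). Both separated the genotypes, and Sqle, Fdft1, Nsdhl and Stard4 were the other 4 called. Csf2rb knockouts had 7 of 28 called, all lower, where 22.5% of all genes were called and 11.4% were lower. Here too the share called in either direction was near the background. The count was 2 when the third wild-type library was left out and 3 when the first or the fourth was. These knockout libraries had counts on 9387 to 9418 genes, against 11639 to 12557 in wild type. Erythroid genes rose in 3 of 3 tested (5220 to 7110 CPM summed in knockouts, against 1730 to 2700 CPM in wild type) and cell cycle genes fell in 14 of 22 (259 to 648 CPM, against 1910 to 2290 CPM in wild type). Monocyte and macrophage genes rose in 9 of 13 and fell in 1, and the part of these differences was not tested. Mvd had 0.847, 9.74 and 23.7 CPM in Csf2rb knockouts, against 59.6, 78.8, 73.5 and 81.3 CPM in wild type (-2.50, edgeR adjusted p = 0.0358). Hsd17b7 and Acat2 had 0 counts in all 3 Csf2rb knockouts, against 152 and 227 counts over the 4 wild-type libraries. Taking 3 counts over the knockout group as the floor, they were at least 21.9-fold and at least 25.8-fold lower. This bound covers counting error only. Other members varied widely between these knockout libraries (Nsdhl 0 to 18.9 CPM, Fads1 0 to 28.0 CPM), so the fold in the cells may be smaller. Srebf1 had 47.4, 60.3 and 64.7 CPM in Csf2rb knockouts, against 101, 142, 117 and 136 CPM in wild type (-0.98 ± 0.27, edgeR adjusted p = 0.0256), and Fasn fell as well (-1.62 ± 0.41, edgeR adjusted p = 0.0196). The alveolar macrophage list summed to 310 to 353 CPM in Cebpb knockout precursors, against 2940 to 4310 CPM in wild type, and to 166 to 383 CPM in Csf2rb knockouts, against 3380 to 5090 CPM in wild type. Dendritic cell genes summed to 601 to 1070 CPM in Cebpb knockout precursors, against 31.8 to 36.0 CPM in wild type, and the part of these lists was not tested. In Ly6Chi fetal monocytes 0 of 24 tested members were called by edgeR's quasi-likelihood test (3 at unadjusted p under 0.05, and 0 with DESeq2), where 3.62% of all genes were called; the sterol enzyme sums were 273 to 303 CPM in knockouts and 241 to 280 CPM in wild type.

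The same pathway has genes outside the 32, which were counted from a separate list. Of 22 other SREBP-pathway genes, with Cyb5r3, Lpin1, Soat1 and Slc25a1 the most abundant, 7 of 17 tested were called in CD11b high knockouts, 6 of them lower, where 24.0% of all genes were called and 11.8% were lower. In CD11b low knockouts 3 of 17 were called, all lower, where 15.1% of all genes were called and 6.83% were lower. In CD11b high Lip cells 8 of 17 were called, 5 higher and 3 lower, where 39.3% of all genes were called, a share near the background. In each of the 3 direct comparisons of knockout with Lip effects 2 were lower and none higher, of 19, 19 and 20 tested, where 5.97%, 4.00% and 6.67% of all genes were called. Of 13 genes of LXR and sterol efflux (Apoe, Npc2, Abcg1 and Pltp the most abundant), 5 were higher and 4 lower in CD11b high knockouts, 4 higher and none lower in CD11b low knockouts, and 4 higher and 6 lower in CD11b high Lip cells. In the same order 24.0%, 15.1% and 39.3% of all genes were called, and the median log2 fold change of the list was 0.45, 0.39 and -0.42. Their summed level was 29200 ± 2770 CPM in CD11b high and 25900 ± 1470 CPM in CD11b low knockouts, against 4860 ± 511 CPM in wild type (SD, n = 4 each). In CD11b high Lip cells the sum was 3130 ± 253 CPM (SD, n = 4), against 2900 ± 139 CPM in controls (SD, n = 3). Apoe weighs most in these sums, with a mean of 7420 CPM over the libraries of the largest count table, against 1110 CPM for Npc2. The sums therefore do not describe the list as a whole. Set directly against each other, the knockout and Lip effects differed for 6 of 13 of these genes in CD11b high cells, 5 higher and 1 lower in the knockout relative to Lip. They differed for 5 of 13 in CD11b low cells, 4 higher and 1 lower, and for 6 of 13 in the third set, 3 higher and 3 lower. The shares of all genes called were again 5.97%, 4.00% and 6.67%.

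C/EBPβ binding was mapped by chromatin immunoprecipitation in 2 libraries of wild-type C57BL/6 alveolar macrophages, with 27105 and 22558 peaks that the authors called per library. A peak of both libraries lay within 10 kb of 21 of the 32 gene bodies (65.6%), against 64.9% of 8227 genes with RefSeq positions that were tested for RNA, a share close to that of other genes in these cells. On the 300-base promoter window a peak of both libraries lay at 8 of 25 members (32%), against 22.3% of genes. The largest fold enrichments given by the authors' peak caller at promoters were 38.34 and 28.8 at Cyp51 (chr5:4103905-4105242 in the first library) and 30.92 and 21.97 at Hsd17b7 (chr1:169968910-169969948). Both intervals cover the printed windows (GRCm38). Hmgcs1 had a peak of 24.99 and 23.6 downstream of its gene body (chr13:119712893-119714104) and none on its promoter window. Sqle had lower fold enrichments (9.37 and 5.76), and no peak lay within 10 kb of Nsdhl, Ebp, Sc5d, Insig2, Acly or Fads2.

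Accessible chromatin was mapped in cultured alveolar macrophages, 3 cultures of MxCre Cebpb flox/flox and 2 of MxCre control, all grown for 7 days with CSF2 at 20 ng/ml and IFNα at 1000 units/ml; peak lists held 88282 to 101952 peaks in knockout and 81880 and 92432 in control cultures. A peak lay on the promoter window in all 5 cultures for 20 of 25 members (80.0%), against 84.0% of genes. Among peaks with a −log10 q of 10 or more it was 18 of 25 (72.0%), against 55.6% of genes. A promoter open in both control cultures and in no knockout culture was found for 0 of 25 members, against 0.8% of genes. The height of accessible peaks was not compared between cultures, since each list was called on its own library.

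In the promoter windows, the NF-Y box CCAAT was present on either strand in 21 of 33 windows (63.6%), against 36.8% of the 8632 windows of tested genes. The printed windows held 4 such boxes at Hmgcs1, 3 at Hsd17b7, 4 at Nsdhl and 1 at Cyp51. The Sp1 box GGGCGG was in 75.8% of member windows, against 64.43% of windows of tested genes. The SREBP core TCACNCCAC was in 1 member window, Hmgcs1 at position -137 from the start (3.0%, against 1.11%), and the longer SREBP element in none (against 0.15%). The C/EBP pair TTGCNNAA was in 2 member windows, Dhcr7 and Nsdhl (6.1%, against 8.69%); at Nsdhl it shares bases with an NF-Y box. The LXR repeat was in no member window and in no window of tested genes. A match is only a match of letters within these windows.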

How the data were processed

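RNA of sorted cells was sequenced from barcoded oligo(dT) primers, per the labels' protocols. The authors deposited raw read counts per gene; STAR 2.6.1a, featureCounts 1.6.3 and the build GRCm38 are named in the submitters' processing notes. The sources used here do not state their settings for strand and for reads with several matches. For chromatin, BWA 0.7.17 and MACS2 2.2.7.1 are named in the submitters' processing notes, and the authors deposited 1 peak list per library with a fold enrichment (a ratio) and a −log10 q-value for each peak, so replicates can be compared by overlap only.

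CPM is a gene's count per 1000000 of the effective library size, which is the total over genes that passed the filter multiplied by the TMM factor within the experiment; the floor of 3 counts is given per 1000000 of the library's total. Each experiment was fitted on its own libraries with edgeR 4.0.16 (quasi-likelihood F test, TMM, filterByExpr with a minimum count of 10, robust fit; R 4.3.3), with Benjamini-Hochberg adjustment over all genes tested and a threshold of 0.05. The test was checked on simulated counts of some of the comparisons, with known changes. Of 2-fold changes it recovered 24.2% (LyzM Cre) to 58.3% (CD11b low knockouts), with 34% in males and 27.1% for the CD11b high difference of alleles. Of 4-fold changes it recovered 86.7% to 98%, and 0.9% to 6.7% of calls were false. A gene that was not called may therefore still have changed by 2-fold. All 19 comparisons of 2 groups and 5 differences of effects are reported. Log2 fold changes are mutant over control. The alternatives were DESeq2 1.42.0, DESeq2's size factors, no filter on low counts, a replicate block and leaving out each library. Same-numbered libraries deviated together (every correlation over 0.1, from 0.105 to 0.248) only between the CD11b high and CD11b low Lip gates, as a hint from the data. All per-sample columns were used.

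A gene counted as near a peak when the peak overlapped its RefSeq gene body (GRCm38.p6) extended by 10 kb, or its promoter window, by at least 1 bp. All 32 genes may be named; from the 12 other fixed lists only the 4 most abundant genes may be. The 32 genes, the lists and the tests were chosen with earlier results of these data known. Chromatin accessibility of the freshly isolated cells and the input of the immunoprecipitation were not analysed here.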

Additional observations from a re-analysis of the deposited data

Results flagged for a closer look

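Among the groups of 4 to 10 libraries, 143 tests of 11 genes and sums were made for a library far from the others of its group, and 14 values stood apart, 2 of them in the same library; the test is at the 0.05 level, so chance alone flags some groups. Fads1 was at 61.4 CPM in Cebpb knockout precursor replicate 3 (the others 49.1 to 49.6) and at 30.4 CPM in Lip replicate 4 of the libraries prepared beside the chromatin samples (18.4 to 20.2). Fdft1 was at 9.55 CPM in Cebpb knockout precursor replicate 2 (5.01 to 5.65) and Sqle at 5.61 CPM in replicate 1 of that group (3.01 to 3.41). Fdps was at 6.1 CPM in 5-week chimera knockout replicate 2 (4.17 to 4.49). Scd1 was at 33.7 CPM in 10-week chimera wild-type replicate 3 (12.5 to 15.2). In Csf2rb wild-type precursors Scd1 was at 4.71 CPM in replicate 1 (1.99 to 2.26), Sqle at 6.16 CPM in replicate 2 (16.5 to 18.2) and Srebf2 at 136 CPM in replicate 2 (103 to 107). Sqle was at 35.2 CPM in Cebpb wild-type replicate 3 of the CD11b experiment (25.2 to 26.8), and Stard4 at 4.67 CPM in CD11b low knockout replicate 2 (7.31 to 7.78). In Ly6Chi knockout monocytes Hsd17b7 was at 5.31 CPM in replicate 4 (1.25 to 1.41), the fatty acid sum at 258 CPM in replicate 2 (175 to 185) and the sterol enzyme sum at 273 CPM in replicate 3 (300 to 303).

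Knockout and Lip effects differed by an interaction term for 21 of 30 tested members in CD11b high cells, 9 of 30 in CD11b low cells and 11 of 30 in the libraries prepared beside the chromatin samples. In the same order 5.97%, 4.00% and 6.67% of all genes differed. In the order CD11b high, CD11b low and chromatin set, the difference of log2 fold changes was -3.17, -2.83 and -2.72 for Fdps, -3.16, -1.48 and -1.76 for Fdft1, -3.72, -2.39 and -2.49 for Sqle, -2.14, -1.99 and -2.01 for Nsdhl, -1.70, -1.88 and -2.38 for Hsd17b7, and -2.39, -1.94 and -1.93 for Stard4. The Fdps values of the CD11b gates rest on few reads: it had 0.698, 0.844, 1.29 and 0.958 CPM in CD11b high and 1.36, 0, 1.67 and 0 CPM in CD11b low knockouts, against 2.82, 5.98, 8.45 and 2.19 CPM in wild type. The knockout effect differed between facility 2 and facility 1 females for 1 of 30 members, Elovl6 (-2.74), where 7.61% of all genes differed. It differed between 10-week and 5-week chimeras for 3 of 32 members, at -2.19 for Scd1, -1.92 for Scd2 and 1.53 for Fads1, where 13.5% of all genes differed. Neither the facility nor the time difference was thus more frequent among the members than among all genes.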

How the results depend on the processing

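Counts of called members, and of members with a C/EBPβ peak or an accessible promoter, were recounted under 100 changes of setting. These were changes of normalization, filter, test or replicate block, and for peaks of distance, number of libraries or q limit. The counts stayed within 1.5 times of the reported value in 86 of the 100. The exceptions were all small counts. With DESeq2 heterozygous females gave 1 against 0, the Lip libraries beside the chromatin samples 1 against 2, and the facility difference 2 against 1. Without a filter on low counts the count was 3 for LyzM Cre, 7 for CD11c Cre, 1 for the Lip libraries beside the chromatin samples and 1 for the chimera time difference. With the replicate block it was 1 in males, 3 for LyzM Cre, 8 for CD11c Cre, 2 for Csf2rb knockouts, 1 for the Lip libraries beside the chromatin samples, 3 in 5-week chimeras and 0 for the facility difference. The labels do not say that a number marks a shared animal or day. In the chimeras, where both donors' cells may come from the same recipients, same-numbered libraries correlated at 0.124, 0.098 and 0.11 at 10 weeks, each best with its own number, and at 0.354, 0.016 and 0.057 at 5 weeks; the block gave 13 against 12 at 10 weeks. In the others the libraries are taken to share only a number. For the Lip gates, where same-numbered libraries deviated together, the block gave 13 called members against 13 without it, the same number. Crossed numbers, tried after seeing the data because same-numbered libraries deviated apart, gave 16 in facility 1 females and 3 for LyzM Cre.

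Leaving out 1 library at a time, counts ranged from 10 to 13 for CD11b low and 15 to 18 for CD11b high knockouts, 2 to 3 between these gates, 13 to 23 for the knockout libraries beside the chromatin samples, 5 to 19 for facility 1 and 15 to 19 for facility 2 females, 1 to 1 for males, 0 to 0 for heterozygotes, 1 to 16 for LyzM Cre and 3 to 8 for CD11c Cre. They ranged from 5 to 9 for CD11b low and 12 to 14 for CD11b high Lip cells, 9 to 13 between these gates, 0 to 2 for the Lip libraries beside the chromatin samples, 2 to 6 in 5-week and 8 to 15 in 10-week chimeras, 3 to 6 for Cebpb and 2 to 7 for Csf2rb knockout precursors, and 0 to 0 in Ly6Chi monocytes. For the knockout against Lip effects they ranged from 17 to 21 in CD11b high cells, 6 to 11 in CD11b low cells and 6 to 14 beside the chromatin samples, and the facility and time differences gave 0 to 4 and 1 to 6.

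Of 207 calls of single members, none of 828 values under other settings and none of 1700 under leave-outs changed direction, and 52 and 312 missed the threshold; 32 of the 52 were with the replicate block. Of the members near a C/EBPβ peak of both libraries, 21 (65.6%, against 64.9% of genes) became 16 within 2 kb (50.0%, against 54.5%), 26 with at least 1 library (81.2%, against 78.9%) and 15 at a −log10 q of 10 or more (46.9%, against 48.6%). At that limit the 20 promoters open in all 5 cultures became 18, and the share moved to the other side of that of all genes (80.0% against 84.0%, and 72.0% against 55.6%). Shallow libraries limit the low genes most: 3 counts are 4.67 CPM in the shallowest library.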
